A study of Mus musculus with 16 samples.

Results

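Oxidative phosphorylation runs through 5 protein complexes of the inner mitochondrial membrane. Most of their subunits are encoded in the nucleus and imported, and 13 are encoded by the mitochondrial genome. The nuclear subunit genes were taken by symbol: Nduf genes of the a, b, c, s and v series for complex I, Sdha to Sdhd for complex II, Uqcr genes for complex III, Cox4 to Cox8 genes for complex IV and Atp5 genes for complex V. Of 24469 gene symbols in the count tables, 84 matched, and 81 of them had 20 or more unique molecular identifiers (UMIs, counted transcript molecules) over the 16 libraries. These 81 members comprised 37 genes of complex I, 4 of complex II, 8 of complex III, 15 of complex IV and 17 of complex V. For comparison, 14588 of all symbols reached the same number of UMIs. Cox8b and Cox8c, with 0 UMIs, and Cox7b2, with 1 UMI, fell below it, while the member with the fewest UMIs, Ndufa4l2, had 216.

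The libraries came from 8-week-old Aire+/+ and Aire-/- littermates on a C57BL/6 background that carried subcutaneous tumors of the MC38 colon carcinoma line and received anti-PD1 antibody or an isotype control at 5 mg/kg. Aire is the thymic regulator through which developing T cells are exposed to tissue antigens, and PD1 is an inhibitory receptor of activated T cells. Tumors and spleens were harvested on day 19, cells were sorted as CD45+ or CD8+, and each of the 16 combinations of genotype, treatment, tissue and sort was measured as 1 single-cell RNA library. Each tumor pool combined 4 to 6 mice, and spleens were pooled in numbers not given, so no library describes a single mouse. With 1 library per combination, no genotype or treatment has a replicate library. The knockout was in the germline. Where values of 4 conditions are listed, the order is Aire+/+ isotype, Aire+/+ anti-PD1, Aire-/- isotype, Aire-/- anti-PD1.

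The libraries held 10927391 to 38930017 UMIs. Median UMIs per cell ranged from 8883 to 12251.5 in the tumor libraries and from 4413.5 to 6405 in the spleen libraries. Aire itself had 18 UMIs over the 20161 barcodes of Aire+/+ libraries and 6 over the 17448 barcodes of Aire-/- libraries. The labels name a 3′ kit and a methods paragraph on receptor libraries a 5′ kit, and a tag from either end can lie outside the deleted part, so these counts leave the genotype labels unchecked. Cells were assigned to types by UMIs of lineage markers alone, such as Cd3 and Cd8 genes for CD8 T cells, Ncr1, Klrb1c and Klre1 for natural killer (NK) cells, and C1q genes for macrophages, and 77.7 to 97.3% of the cells of a library entered exactly 1 gate. The CD8 gate held 2417, 2057, 1713 and 2073 tumor cells and 2729, 2743, 2239 and 2459 spleen cells of the CD8+ sort.

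Complex I takes electrons from NADH, complex II takes them from succinate, complex III passes them to cytochrome c, complex IV reduces oxygen, and complex V, the ATP synthase, uses the resulting proton gradient to make ATP. Some symbols have been reassigned since they were named. Ndufa4 is now counted with complex IV, Cox7a2l is a factor that joins complexes III and IV into supercomplexes, and Atp5s and Atp5sl are not ATP synthase subunits. Activated T cells use glycolysis and oxidative phosphorylation side by side, and several complex IV subunits exist as paired isoforms with tissue-restricted expression. Levels are given as CPM, the UMIs of a gene in every 1000000 UMIs of the gated cells, which describe mRNA and not respiration.

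The first comparison asked whether the members differ between CD8 T cells of the tumor and of the spleen. In CD8-gated cells of the CD8+ sort, nuclear subunit mRNA made up a larger part of the transcriptome in the tumor. All members together stood at 23232, 22634, 22794 and 22696 CPM in tumor cells and at 17117, 16026, 16565 and 17518 CPM in spleen cells, so the 4 tumor values lay above every spleen value. By the edgeR quasi-likelihood test with Benjamini-Hochberg adjustment over 11677 genes, 60 of 78 members tested were higher in tumor cells and 7 were lower at an adjusted p below 0.05. Among all genes tested, 37.8% were higher and 39.6% lower. The median log2 fold change was 0.35 for the members and -0.03 for all genes. For 70 of the 78 members the tumor and spleen CPM did not overlap, 66 were higher in the tumor in all 4 conditions and 7 were lower in all 4. Among all genes tested, 71.5% did not overlap, 43.4% were higher in all 4 conditions and 37.4% were lower in all 4.

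The test compares tissues within the 4 conditions, so its p-values measure how far the tissue difference varied between pools of mice. Tumors were dissociated with enzymes and spleens mechanically, and an effect of tissue cannot be told apart from an effect of dissociation. The CD8 gates of the tissues also differ in cell state. The paper reports that tumor CD8+ cells had very little L-selectin, a marker of naive cells, and much Cd69, a marker of activation. An effect of tissue on like cells cannot be told apart from this difference in state, whose part in the member values was not tested. Tumor CD8-gated cells also held more UMIs, with medians of 11000, 10123, 10026 and 8831 per cell against 6392, 6335, 6290 and 5812 in the spleen.

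**Figure D1:**
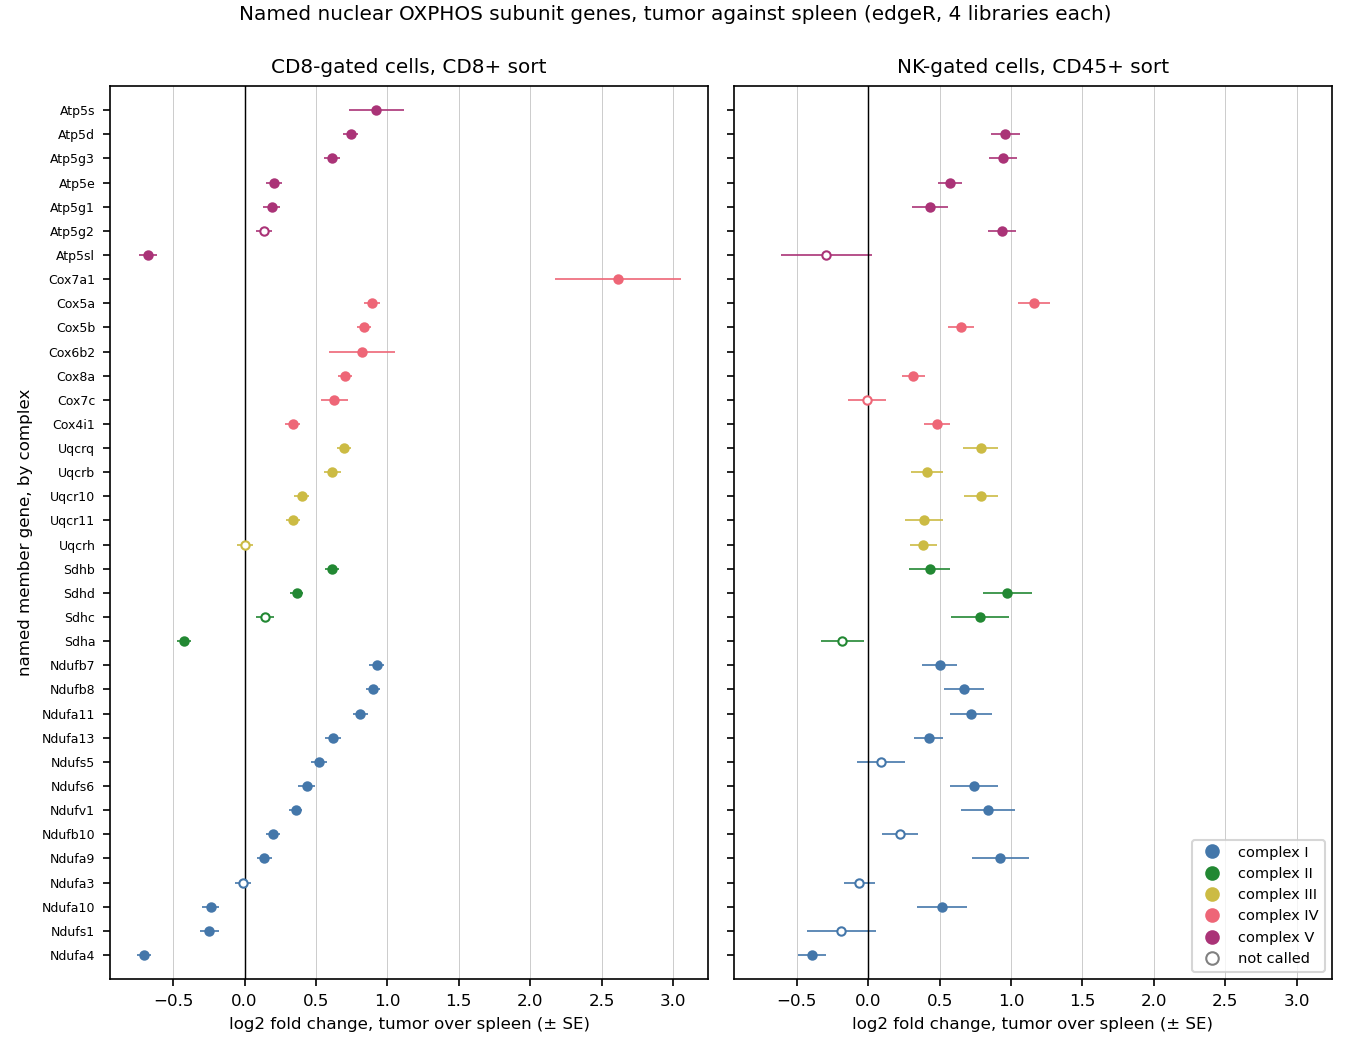
Log2 fold change of the members named by rule, tumor over spleen, with standard errors, in CD8-gated and NK-gated cells, ordered by complex; hollow symbols were not called. In CD8-gated cells the values lie mostly above 0, with Ndufa4 at -0.70 as the lowest.

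In complex I, 28 of 36 members tested were higher in tumor CD8-gated cells and 4 were lower, with a median log2 fold change of 0.27. Beside this count and those of the other complexes stand 37.8% of all genes higher and 39.6% lower. The complex summed to 6680, 6516, 6595 and 6543 CPM in the tumor and to 5146, 4850, 4988 and 5316 CPM in the spleen. Ndufb7, an accessory subunit of the membrane arm, stood at 272, 277, 281 and 279.9 CPM in the tumor and 138, 123.3, 143 and 148 CPM in the spleen. Ndufb8, of the same arm, had 201, 199.6, 199 and 201 CPM against 101, 94.8, 100.2 and 109 CPM. The tissues did not overlap for either gene. The log2 fold change was 0.92 ± 0.05 (standard error) for Ndufb7, with an adjusted p of 1.36e-06, and 0.90 ± 0.05 for Ndufb8, with 1.11e-06, each higher in 4 of 4 conditions. Ndufa11, another membrane-arm subunit, was higher by 0.81 ± 0.05 (adjusted p 2.83e-06, 4 of 4 conditions), from 131, 114, 119.7 and 131 CPM in the spleen to 232, 223, 234 and 233 CPM in the tumor.

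Ndufa13, an accessory subunit needed for assembly of the complex, had 475, 481, 474 and 467 CPM in tumor cells and 293, 264, 291 and 318 CPM in spleen cells, a log2 difference of 0.62 ± 0.06 with an adjusted p of 1.99e-05 in 4 of 4 conditions. Ndufa3 had similar CPM in both tissues, at 357, 353, 381 and 363 CPM against 352, 312, 341 and 375 CPM, and was not called (log2 fold change -0.01 ± 0.06, adjusted p 0.889). Ndufa4 went the opposite way to its neighbours. It stood at 232, 234, 233 and 249 CPM in the tumor and at 363, 334, 359 and 399.9 CPM in the spleen, without overlap. Its log2 fold change was -0.70 ± 0.05 (adjusted p 4.65e-06, lower in 4 of 4 conditions). The iron-sulfur core subunit Ndufs1 and the accessory subunit Ndufa10 were lower by smaller amounts, with log2 fold changes of -0.25 ± 0.07 and -0.24 ± 0.06, adjusted p-values of 0.00916 and 0.00514 and lower CPM in 4 of 4 conditions each. Ndufs1 was called lower under 10 of 14 alternative processing settings. Ndufs7, the fourth lower member of complex I, chosen after its value was seen, had -0.14 ± 0.05 (adjusted p 0.0215, 4 of 4 conditions) and was called lower under only 4 of those 14.

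Complex II split between its subunits. Its catalytic flavoprotein Sdha was lower in tumor CD8-gated cells, at 82.6, 83.0, 81.1 and 83.2 CPM against 106.9, 107.0, 102 and 101 CPM in the spleen. Sdhb, the iron-sulfur subunit, was higher, at 194, 199.6, 181 and 206 CPM against 124, 119, 109 and 128 CPM. The log2 fold changes were -0.43 ± 0.05 for Sdha (adjusted p 0.000105, lower in 4 of 4 conditions) and 0.61 ± 0.05 for Sdhb (adjusted p 8.98e-06, higher in 4 of 4), and neither gene's tissues overlapped. Of the membrane anchors, Sdhd was higher by 0.36 ± 0.05 (adjusted p 0.000169, 4 of 4 conditions) and Sdhc was not called (0.14 ± 0.06, adjusted p 0.0716). The complex summed to 420.1, 416, 396 and 421 CPM in the tumor and 340.0, 331, 314 and 332 CPM in the spleen.

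In complex III, 5 of 8 members were higher and 0 were lower, with a median of 0.30. It summed to 2269, 2234, 2238 and 2245 CPM in the tumor and 1835, 1666, 1720.3 and 1867 CPM in the spleen. The small subunit Uqcrq stood at 328, 321, 322 and 323 CPM against 199, 181, 180.1 and 194 CPM. Uqcrb, which lies near the ubiquinone site, stood at 288, 291, 302 and 285 CPM against 182, 159.9, 180.1 and 197 CPM. Tumor values exceeded all spleen values for both genes. Their log2 fold changes were 0.69 ± 0.05 (adjusted p 5.82e-06) and 0.61 ± 0.06 (adjusted p 2.64e-05), each in 4 of 4 conditions. Uqcr10 was higher by 0.40 ± 0.05 (adjusted p 0.000145, 4 of 4 conditions). The hinge protein gene Uqcrh did not differ between tissues, with 698, 713, 732 and 738 CPM in the tumor, 711, 647, 649 and 707 CPM in the spleen and a log2 fold change of 0.00 ± 0.06 (adjusted p 0.990).

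Complex IV, as grouped by symbol, differed most. All of its 13 tested members were called, 12 higher and 1 lower, with a median log2 fold change of 0.63. The complex summed to 5977, 5809, 5771 and 5768 CPM in tumor cells and 3976, 3704, 3902 and 4027 CPM in spleen cells. Cox5a and Cox5b, which flank the catalytic core from the matrix side, had tumor values of 505, 509.9, 514 and 533 CPM and of 624, 597, 594 and 609 CPM. Their spleen values were 261, 228, 266 and 293 CPM and 323, 297, 319 and 342 CPM. Cox5a was higher by 0.90 ± 0.06 (adjusted p 2.55e-06) and Cox5b by 0.83 ± 0.05 (adjusted p 2.02e-06), in 4 of 4 conditions and without overlap.

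Cox8a, a small membrane subunit, had 1105, 1078, 1079.7 and 1074 CPM in the tumor and 643, 579.7, 629 and 659 CPM in the spleen (log2 fold change 0.70 ± 0.05, adjusted p 6.33e-06, 4 of 4 conditions). Cox4i1, the common isoform of the regulatory subunit 4, had 858, 847, 848 and 859 CPM against 658, 617, 629 and 642 CPM (0.34 ± 0.05, adjusted p 0.000394, 4 of 4 conditions). Among tested members the largest fold was that of Cox7a1, the muscle isoform of subunit 7a, but at a level near 2 CPM. Most of its UMIs came from tumor cells, so the fold rests on few spleen UMIs. Its log2 values by condition ran from 1.15 to 3.78. It had 1.79, 2.10, 1.87 and 1.43 CPM in tumor cells and 0.108, 0.112, 0.336 and 0.593 CPM in spleen cells, from 195 UMIs in all, with a log2 fold change of 2.61 ± 0.44 (adjusted p 0.000760, 4 of 4 conditions). Cox6b2, the testis isoform of subunit 6b, was higher by 0.82 ± 0.23 (adjusted p 0.0111, 226 UMIs, 4 of 4 conditions). The only lower gene grouped with the complex by symbol was Cox7a2l, the supercomplex factor, named here after its value was seen, at 311, 298, 292 and 288 CPM in the tumor and 480.3, 490.0, 452 and 431 CPM in the spleen (-0.73 ± 0.06, adjusted p 7.77e-06, 4 of 4 conditions). Ndufa4, grouped with complex I by symbol and lower as well, is not in that count.

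In complex V, 13 of 17 members were higher and 1 was lower, with a median of 0.31. It summed to 7886, 7659.8, 7795 and 7719 CPM in the tumor and 5820.0, 5474, 5640.1 and 5974 CPM in the spleen. Atp5d, the delta subunit of the central stalk, stood at 629, 599, 628 and 615 CPM in the tumor and 361, 333, 343 and 354 CPM in the spleen, with no overlap and a log2 fold change of 0.74 ± 0.05 (adjusted p 4.23e-06, 4 of 4 conditions). Its stalk partner Atp5e had 964, 956, 973 and 960.4 CPM against 811, 757, 746 and 829 CPM (0.21 ± 0.06, adjusted p 0.00868, 4 of 4 conditions). The largest changes up and down belonged to the genes that are not synthase subunits. Atp5s was higher by 0.92 ± 0.19 (adjusted p 0.00256, 342 UMIs, 4 of 4 conditions), and Atp5sl was lower by -0.68 ± 0.06 (adjusted p 2.18e-05, 4 of 4 conditions), from 21.0, 22.9, 21.5 and 21.0 CPM in the spleen to 13.9, 15.8, 13.7 and 14.1 CPM in the tumor.

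Atp5g1, Atp5g2 and Atp5g3 encode the same mature c subunit of the rotor ring. Atp5g3 carried most of their tissue difference. It stood at 699.6, 696, 729.9 and 728 CPM in the tumor and 449, 405, 426 and 481 CPM in the spleen, whereas Atp5g2 stood at 783, 728, 736 and 715 CPM and 659, 660.2, 605 and 617 CPM. The log2 fold change was 0.61 ± 0.06 for Atp5g3 (adjusted p 1.99e-05, 4 of 4 conditions), 0.19 ± 0.06 for Atp5g1 (adjusted p 0.0156, 4 of 4 conditions) and 0.13 ± 0.06 for Atp5g2 (adjusted p 0.0599, not called).

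The subunits encoded in mitochondria went the opposite way to their nuclear partners. All 13 were lower in tumor CD8-gated cells, with a median log2 fold change of -1.34 against -0.03 for all genes. They summed to 14879, 14749, 13132 and 14178 CPM in the tumor and 26487, 34560, 31381 and 26146 CPM in the spleen. ND2 and ND4L of complex I were farthest, with -1.65 and -1.51, and COX2 and ND6 were nearest to 0, with -0.70 and -0.29. The cause of this difference was not tested.

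Assembly factor genes were called in both directions, with 6 to 16 higher and 8 to 18 lower over the alternative settings. Of all genes 37.8% were higher and 39.6% lower. Of 43 assembly factor genes, 13 were higher and 15 lower, with a median of -0.05 that lay between -0.10 and 0.03 over the alternative settings. Cox17, which delivers copper to complex IV, was higher by 1.95, from a median of 157 CPM in the spleen to 663 CPM in the tumor, and Sco1, which takes over that copper, by 1.13. Lyrm7, a complex III factor, was lower by -2.03 (7.25 to 1.94 CPM), and Sco2 by -1.003. Among 20 genes of the TCA cycle and pyruvate entry, 9 were higher and 5 lower, with a median of 0.10 and a range of -0.03 to 0.18 over the settings. Idh2 was lower by -2.71, from 48.2 to 8.26 CPM, and Suclg2 by -0.80, while Pcx was higher by 0.73 and Fh1 by 0.46.

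Of 12 tested regulators of mitochondrial biogenesis, 9 were lower and 1 was higher, with a median of -0.58. The coactivator genes Ppargc1b and Pprc1 were lower by -1.52 and -1.21, and Gabpb1, a subunit of an ETS-type activator of subunit genes, was higher by 0.72. Of all genes in this fit, the background for each of these lists, 37.8% were higher and 39.6% lower. Mitochondrial ribosomal protein genes divided 32 higher to 23 lower of 77, with a median of 0.05 (-0.01 to 0.14 over the settings). Mrps11 and Mrpl54 were farthest up, with 0.79 and 0.77, and Mrps18b and Mrps27 farthest down, with -0.94 and -0.81. Of 7 respiratory chain genes that the symbol rule leaves out, 4 were higher and 1 was lower, with a median of 0.32. Etfb of the electron transfer flavoprotein was higher by 1.38, cytochrome c itself (Cycs) by 0.91, and Dhodh was lower by -0.81. Atpif1, the inhibitor of the ATP synthase, was higher by 1.32, and the carrier Ucp2 was not called, with 0.12.

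Glycolysis genes differed far more than the members. All 16 were higher in tumor CD8-gated cells, with a median log2 fold change of 2.22. They summed to 16452, 14245, 14381 and 12604 CPM in the tumor and 3109, 2751, 2862 and 3271 CPM in the spleen. Tpi1 and Hk2 were farthest, with 3.79 each, and Pfkm and Hk1 had the smallest changes, 0.39 and 0.98. Cytosolic ribosomal protein genes, taken by Rpl and Rps symbols, were lower, 83 of 94 tested against 2 higher, with a median of -0.66. The symbols also take in some pseudogenes and kinase genes, which are in these counts and in those of NK cells. Rps19-ps3, a pseudogene by its symbol, and Rps27 were farthest down, with -2.07 and -1.46. The 2 higher symbols were Rps6ka4, which encodes a kinase, with 1.20, and Rps27l, with 0.89.

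Marker genes of other cell types also differed between the CD8 gates of the tissues. Both tested NK genes were higher in the tumor, and the list summed to 116, 146, 130.3 and 109.7 CPM there against 12.998, 13.6, 24.3 and 23.4 CPM in the spleen, with Klre1 the most abundant. Monocyte genes were higher in 4 of 4 cases, with Ly6c2 as the most abundant and Ear2 at 0 (1724, 2123, 2406 and 2295 CPM against 618, 587, 812 and 751 CPM). Macrophage genes were also higher in 4 of 4 cases, led by C1qb, at 5.75, 10.51, 14.1 and 14.2 CPM against 0.485, 0.281, 0.269 and 0.659 CPM. B cell genes were lower in 2 of 2 cases, led by Cd79b with Ms4a1 at 0, at 2.68, 2.79, 2.36 and 4.10 CPM against 23.7, 22.1, 24.9 and 26.2 CPM. Hemoglobin genes of erythroid cells were lower in 2 of 2 cases, at 0.0319, 0, 0 and 0 CPM against 267, 1.07, 2.42 and 2.57 CPM. Plasmacytoid dendritic genes, 1 higher and 1 lower of 2 and led by Bst2, summed to 307, 414, 435 and 450.3 CPM against 188, 165, 189.5 and 183 CPM. Tumor or stromal genes, 2 higher and 1 lower of 3 and led by Cdh1 with Krt8 at 0, summed to 11.5, 10.2, 13.2 and 16.9 CPM against 3.51, 3.60, 3.76 and 4.02 CPM. Plasma cell genes, 2 higher and 1 lower of 3 and led by Xbp1, summed to 83.4, 95.9, 99.2 and 102 CPM against 24.5, 22.9, 25.2 and 30.3 CPM. Mature dendritic genes were 2 higher and 0 lower of 3, led by Ccr7, at 432, 510.3, 469 and 329 CPM against 489, 472, 450.5 and 493 CPM. Type 2 dendritic and basophil or mast cell genes were higher in 1 of 1 case each, at up to 1.17 and 2.11 CPM in the tumor, and type 1 dendritic genes lower in 1 of 1, at up to 2.70 CPM in the spleen. S100a8 and Retnlg had 0 UMIs, and Siglech, Cd4 and Foxp3 were at 0 because the gate requires it. The CD8 and NK gates also allow at most 2 UMIs per cell of the B cell genes, of the C1q genes and of Lyz2. Levels of those genes are therefore limited by the gates. Whether the UMIs of these lists came from other cells or from the CD8 T cells themselves was not tested. Their part in the member values was not tested either.

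Cycling cells, those with Mki67 or Top2a UMIs, made up 33.6 to 44.97% of the tumor CD8-gated cells and 2.33 to 4.29% of the spleen cells. Any UMI of either gene counted, no background share was taken off, and tumor cells held more UMIs. These shares therefore depend on depth. Both marker genes were higher in the tumor gate, led by Top2a. Cycling tumor cells had 23406 to 23939 CPM of the members and other tumor cells 21729 to 22303 CPM. In the spleen the ranges were 19805 to 24336 CPM for cycling and 15906 to 17130 CPM for other cells. Without cycling cells, 63 of 78 members were higher in the tumor and 6 were lower, against 37.2% and 37.6% of 11253 genes. CD8-gated cells of the CD45+ sort gave 23633, 22434, 23619 and 21964 CPM in the tumor and 15989, 16132, 16584 and 16391 CPM in the spleen.

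**Figure D2:**
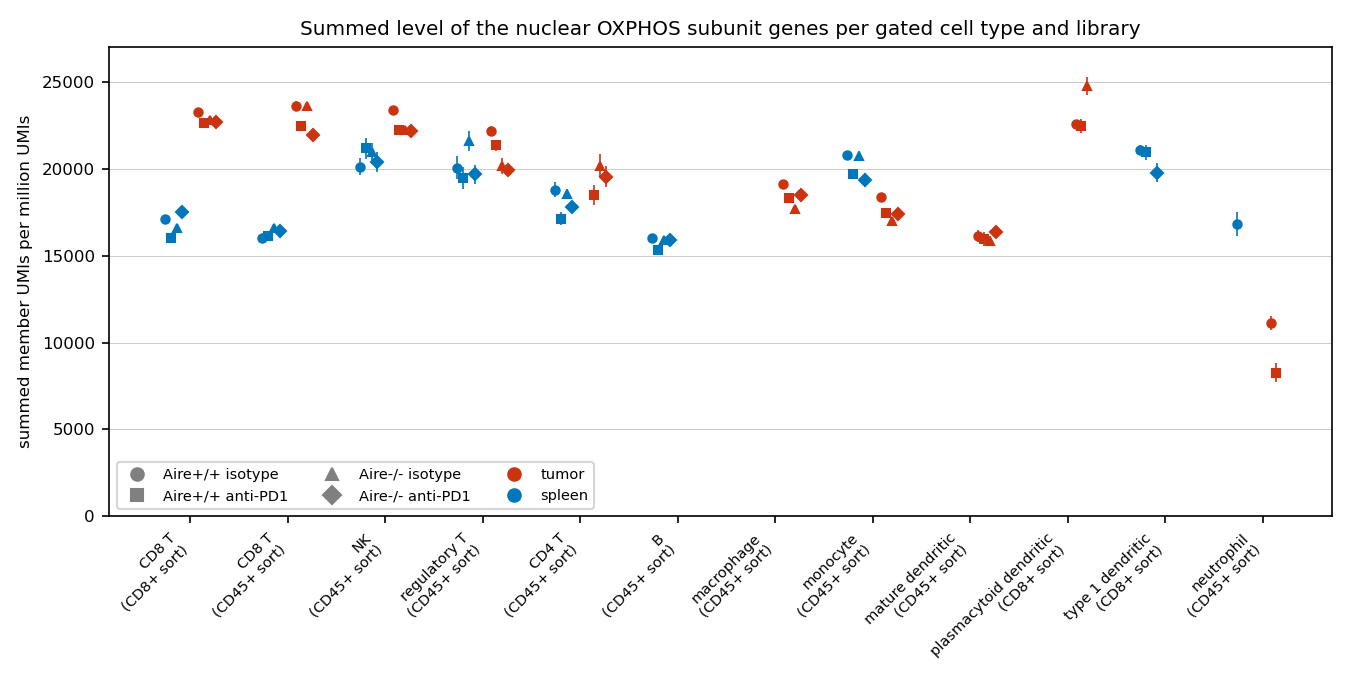
Summed member CPM for each gate, library, tissue and sort. CD8-gated tumor cells lie between 21964 and 23633 CPM, above CD8-gated spleen cells, and tumor monocytes, at 16974 to 18384 CPM, lie below spleen monocytes, at 19347 to 20796 CPM.

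NK cells of the CD45+ sort were compared in the same way. The members were again higher in the tumor, but the count depends on how the libraries are scaled. The gates were small in the spleen, with 85, 49, 58 and 55 cells against 107, 128, 155 and 267 in the tumor. The members summed to 23357, 22253, 22246 and 22188 CPM in tumor NK cells and 20125, 21168, 20936 and 20388 CPM in spleen NK cells, again without overlap. The edgeR test called 58 of 75 members higher and 1 lower over 8378 genes, of which 21.6% were higher and 16.4% lower, with a median log2 fold change of 0.52 against -0.03 for all genes.

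TMM scaling, edgeR's correction for composition, moves all genes about alike, so it cannot change the members' distance from all genes. The number of NK calls depended on it. Its factors were 0.864 to 0.880 in the tumor and 1.13 to 1.18 in the spleen. Without it the median of all genes fell to -0.42, the higher share of all called genes went from 56.8% to 25.8%, and 16 of 75 members were higher and 6 lower, against 12.2% and 34.96% of all genes. The member median was then 0.12. Cox8a, Uqcrh and Uqcr11, each higher with TMM scaling, lay at -0.08, -0.01 and -0.01, still above the shifted median of all genes. Thinning every cell to 1000 UMIs left 13 of 67 members higher and 1 lower, with 21.6% of 1965 genes higher and 14.6% lower, and medians of 0.27 for the members and -0.01 for all genes. By plain CPM, 27 of 75 members had no overlap between tissues (42.5% of all genes), 24 were higher in all 4 conditions (15.2% of all genes) and 8 were lower in all 4 (39.3% of all genes).

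Each complex had a majority of higher calls in NK cells with TMM scaling, where 21.6% of all genes were higher and 16.4% lower. By plain CPM, the sums of complexes I to III overlapped between tissues. Complex I summed to 6555, 6270.1, 6287 and 6212 CPM in the tumor and 6197, 6289, 6326 and 6335 CPM in the spleen, lower in the tumor in all conditions but Aire+/+ isotype. Complex IV, at 5957, 5799.7, 5676 and 5704 CPM against 5119.8, 5499.5, 5355 and 5035 CPM, and complex V, at 8195, 7735, 7853 and 7818 CPM against 6549, 7006, 6879 and 6552 CPM, did not overlap. Complex I had 25 higher and 1 lower of 36 (median 0.51, and 0.12 without TMM) and complex II 3 and 0 of 4 (0.60, and 0.21). Complex III had 7 and 0 of 8 (0.41, and 0.01), complex IV 9 and 0 of 11 (0.48, and 0.08), and complex V 14 and 0 of 16 (0.56, and 0.16). Cox5a stood at 487, 496, 492 and 489 CPM in tumor NK cells and 229, 322, 314 and 302 CPM in spleen NK cells. Atp5d stood at 677, 599, 669 and 664 CPM against 421, 463, 456 and 431 CPM. The tissues did not overlap for either gene, and the log2 fold changes were 1.16 ± 0.11 (adjusted p 1.62e-07) and 0.96 ± 0.10 (adjusted p 4.04e-07), each in 4 of 4 conditions. Sdhd was higher by 0.97 ± 0.17 (adjusted p 0.000182, 4 of 4 conditions) but was not called after thinning (0.49, adjusted p 0.370), Uqcrq by 0.79 ± 0.12 (adjusted p 4.90e-05, 4 of 4 conditions), and Sdha was not called (-0.18 ± 0.15, adjusted p 0.360).

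Ndufa4 was the only member lower in NK cells with TMM scaling, and it was lower in CD8-gated cells too. Without TMM, Atp5h, Cox7c, Ndufa3, Sdha and Uqcrc1 were lower as well. It had 285, 339, 341 and 329 CPM in the tumor and 511, 594, 584 and 551 CPM in the spleen, without overlap, and a log2 fold change of -0.40 ± 0.10 (adjusted p 0.00402, lower in 4 of 4 conditions). It was called lower under all 10 NK alternatives (-0.79 to -0.33) and all 14 CD8 alternatives (-0.72 to -0.47). Together 51 members were higher in both cell types, while 15.7% of 8318 genes tested in both were. Without TMM in the NK fit the count was 15 of 75 (9.31% of genes), and after thinning it 12 of 67 (15.0% of 1958 genes). Ndufa10 was lower in CD8-gated cells and higher in NK-gated cells, where its log2 fold change was 0.52 ± 0.17 (adjusted p 0.0249, higher CPM in 3 of 4 conditions) with TMM scaling.

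The other lists did not all move as in CD8-gated cells. Beside their NK counts, 21.6% of all genes were higher and 16.4% lower, and without TMM 12.2% and 34.96%. Cytosolic ribosomal protein genes were higher in tumor NK cells, 73 of 91 against 3 lower, with a median of 0.88 (0.49 without TMM), while they were lower in tumor CD8-gated cells. Mitochondrially encoded subunits were 3 higher and 2 lower of 13 (median 0.04), and 0 higher and 8 lower without TMM (-0.36). Glycolysis genes were 12 higher and 0 lower of 15 (1.79, and 1.40 without TMM). Assembly factor genes were 6 higher and 2 lower of 39 (0.12, and -0.27), TCA cycle genes 6 and 0 of 19 (0.24, and -0.16), biogenesis regulators 2 and 1 of 11 (0.29, and -0.11), and mitochondrial ribosomal protein genes 32 and 1 of 77 (0.39, and 0.00). The respiratory chain genes outside the symbol rule were 5 higher and 0 lower of 7 (0.68, and 0.28).

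The NK marker genes themselves were lower in the tumor gate, 3 of 3, at 1029, 1021, 1115 and 1058 CPM against 3859, 3562, 3994 and 4214 CPM, with Ncr1 the most abundant. The gate itself asks for 3 or more UMIs of these genes per cell, which is a higher CPM in cells with fewer UMIs. Spleen NK cells held fewer UMIs, so this comparison depends on gate and depth. Cycling genes were higher, 2 of 2, at 269, 246, 184 and 131 CPM against 20.3, 9.08, 142 and 4.02 CPM. CD8 T cell genes summed to 6.51, 4.81, 7.84 and 12.5 CPM in the tumor and 14.5, 13.6, 17.3 and 24.1 CPM in the spleen. Mature dendritic genes were higher, 2 of 2 and led by Ccr7, at 94.1, 55.3, 22.99 and 93.4 CPM against 2.90, 0, 0 and 0 CPM. Plasmacytoid dendritic genes, 1 higher of 1 and led by Bst2, stood at 209, 332, 281 and 233 CPM against 37.8, 36.3, 41.5 and 52.3 CPM, with Siglech at 0. Tumor or stromal genes, 1 higher of 1 and led by Cdh1 with Krt8 at 0, stood at 33.1, 25.2, 46.5 and 18.8 CPM against 5.81, 4.54, 6.91 and 0 CPM. Monocyte genes were 1 higher and 1 lower of 3, led by Ly6c2 with Ace and Ear2 at 0, at 878, 1012, 1126 and 1247 CPM against 1414, 1298, 1023 and 1143 CPM, and S100a8, S100a9 and Retnlg had 0 UMIs. Plasma cell genes, 1 higher of 1 and led by Xbp1, stood at 115, 113, 143 and 129 CPM against 102, 58.99, 100.2 and 88.5 CPM. B cell genes, led by Cd79b and too sparse to be tested, had 1.18, 0.601, 0 and 0.272 CPM against 17.4, 9.08, 17.3 and 12.1 CPM, and macrophage genes, led by C1qb and also untested, 17.2, 9.61, 10.97 and 5.99 CPM against 2.90, 0, 0 and 4.02 CPM. Their part in the NK difference was not tested.

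Other cell types were described by level alone. The CD4 T cell test was not run, since 1 tumor library held 19 gated cells and 20 were required. In monocytes the tissues lay the other way round, at 18384, 17478, 16974 and 17411 CPM in the tumor and 20796, 19684, 20729.9 and 19347 CPM in the spleen, without overlap and without a test. Regulatory T cells overlapped, with 19920 to 22182 CPM in the tumor and 19468 to 21567 CPM in the spleen. Splenic B cells held 15301 to 16025 CPM. Tumor neutrophils, in the 2 libraries with enough cells, held 8268 and 11102 CPM, and spleen neutrophils, in 1 library, 16798 CPM. Plasmacytoid dendritic cells of the tumor held 22466 to 24747 CPM in 3 libraries of the CD8+ sort.

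Among the complex IV isoforms, Cox6a2 and Cox4i2 were concentrated in particular cell types. Cox6a2, known as the heart and skeletal muscle isoform of subunit 6a, was a gene of plasmacytoid dendritic cells here. In tumor plasmacytoid dendritic cells of the CD8+ sort it had 1532, 1722 and 2778 CPM in the 3 libraries with 20 or more such cells (Aire+/+ isotype, Aire+/+ anti-PD1 and Aire-/- isotype). Isoform values were otherwise pooled over the 4 libraries of a tissue and sort, small gates included, and the pool of all 195 of these cells had 1777 CPM (95% interval 1725 to 1830), an interval narrower than the spread of the libraries. The other pools had fewer than 20 plasmacytoid dendritic cells in every library. They had 1409.9 CPM in 41 tumor cells of the CD45+ sort, 1598 CPM in 22 spleen cells of that sort and 1331 CPM in 35 spleen cells of the CD8+ sort, where 1 library of 4 cells held 1 UMI. In CD8-gated cells of the CD8+ sort it had 0.112 CPM in the tumor and 0.211 CPM in the spleen. Splenic NK cells appeared to hold 49.0 CPM, but 52 of their 54 UMIs came from 1 cell. All intervals given here cover counting error only.

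Cox4i2, the isoform of subunit 4 known from lung, was a macrophage gene in the tumor. Its 468 UMIs in tumor macrophages of the CD45+ sort were 12.7 CPM (95% interval 11.6 to 13.9), and tumor monocytes had 4.43 CPM. Splenic monocytes had 1 UMI, or 0.264 CPM (95% interval 0.00670 to 1.47), and splenic CD8-gated cells of the CD8+ sort had 0, which allows up to 0.0452 CPM by a limit of 3 counts. Cox7a1 followed it, with 9.31 CPM in tumor macrophages and 3.71 CPM in tumor monocytes. Cox6b2 instead was spread over monocytes, at 7.001 CPM in the tumor and 8.99 CPM in the spleen, and type 1 dendritic cells, at 11.4 CPM in the tumor (15 UMIs in 68 cells) and 18.2 CPM in the spleen (8 UMIs in 35 cells, under 20 in every library) of the CD45+ sort. Ndufa4l2, a relative of Ndufa4 known from hypoxic cells, stayed at 0.948 CPM in tumor macrophages and 0.801 CPM in tumor monocytes.

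**Figure D3:**
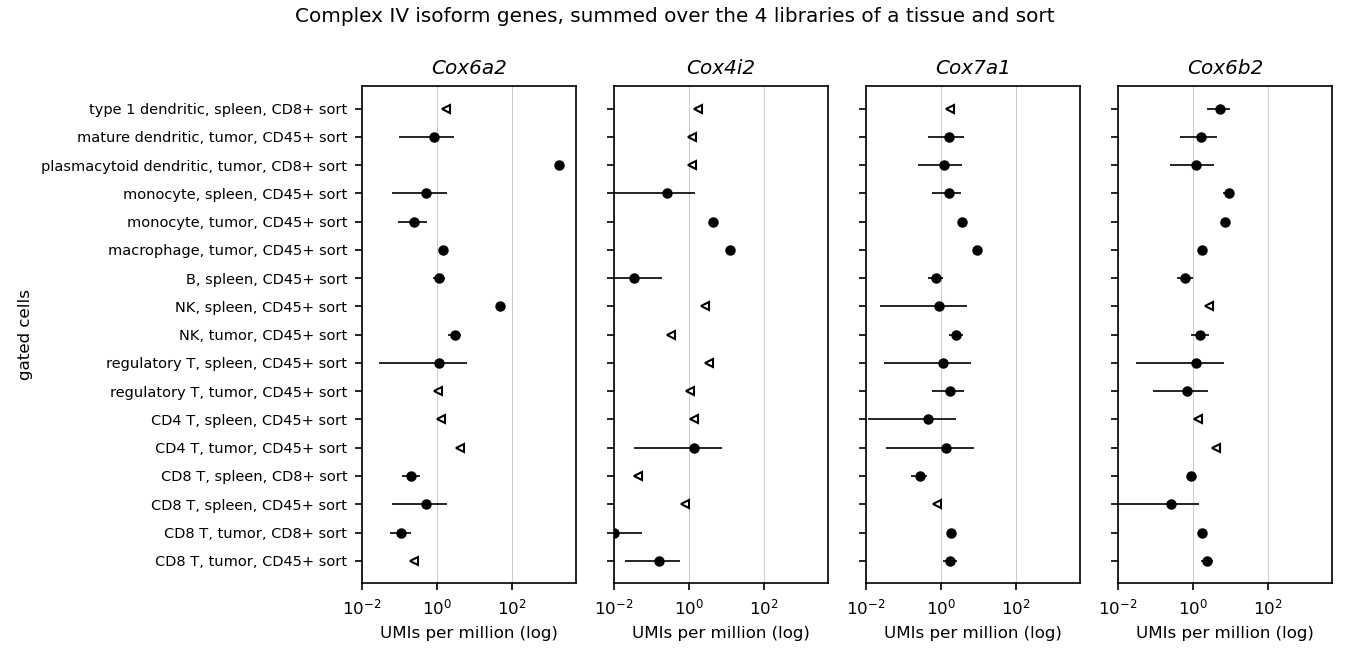
Complex IV isoform genes in CPM on a log axis for each gate, tissue and sort. Cox6a2 reaches 1777 CPM in plasmacytoid dendritic cells, and Cox4i2 reaches 12.7 CPM in tumor macrophages of the CD45+ sort.

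The next comparison asked whether genotype or treatment moved the members in tumor CD8-gated cells of the CD8+ sort. With 1 library per group no test was made, and a gene was counted when its ratio was 5 to 4 or wider either way among genes with 100 or more UMIs over the pair. The members differed little in this sort. Aire-/- over Aire+/+ gave log2 ratios of summed member UMIs of -0.03 (95% interval -0.03 to -0.02) with the control antibody and 0.00 (-0.00 to 0.01) with anti-PD1. Anti-PD1 over isotype gave -0.04 (-0.04 to -0.03) in Aire+/+ and -0.01 (-0.01 to -0.00) in Aire-/- cells. The genotype ratio under anti-PD1 turned to -0.02 after thinning and to -0.03 in the CD45+ sort. In that sort anti-PD1 over isotype was -0.08 (-0.10 to -0.05) in Aire+/+ and -0.10 (-0.12 to -0.09) in Aire-/- cells.

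Between genotypes under isotype, 0 of 76 members were higher and 2 lower, while 5.86% of 9873 genes were higher and 8.29% lower. Under anti-PD1 the members were 0 higher and 1 lower of 76, against 6.11% and 6.36% of 9738 genes. For anti-PD1 over isotype, 0 of 77 members passed in Aire+/+ cells in either direction, against 6.94% of 9973 genes higher and 5.57% lower. In Aire-/- cells 1 of 76 was higher and 0 were lower, against 6.79% and 3.39% of 9606 genes. The medians of the members in these 4 comparisons were -0.04, 0.00, -0.03 and -0.01, beside -0.03, -0.01, 0.01 and 0.03 for all genes.

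Cox7c, a small membrane subunit of complex IV, was the member that set the genotypes apart in this sort. It had 248 and 254 CPM in Aire+/+ and 185 and 173 CPM in Aire-/- tumor CD8-gated cells (isotype and anti-PD1), log2 ratios of -0.43 (-0.48 to -0.37) and -0.56 (-0.61 to -0.50). In CD8-gated tumor cells of the CD45+ sort it had 216 and 232 CPM in Aire+/+ and 246 and 244 CPM in Aire-/- cells, so the difference did not recur. Atp5s was lower in Aire-/- cells under isotype, at -0.58 (-1.19 to -0.00) from 36 against 83 UMIs, and higher with anti-PD1 in Aire-/- cells, at 0.74 (0.13 to 1.37) from 64 against 36 UMIs. Other members stayed within the fold. The farthest were Ndufs1 and Ndufa3 up (0.09 each) between genotypes under isotype, and under anti-PD1 Ndufs5 down (-0.18) and Ndufb10 and Ndufa10 up (0.15 each). The counts hold a separate row for BC002163, a pseudogene of Ndufs5 looked at after the values were seen, and it stood at 10.2 and 11.5 CPM in Aire+/+ and 127 and 97.2 CPM in Aire-/- cells, while Ndufs5 had 103 and 95.8 CPM against 83.6 and 84.8 CPM. In CD8-gated tumor cells of the CD45+ sort Ndufs5 had 101.5 and 98.6 CPM in Aire+/+ and 101.7 and 93.2 CPM in Aire-/- cells. There the pseudogene stood at 14.2 and 13.9 CPM against 107 and 92.9 CPM, so the lower Ndufs5 did not recur under isotype. The part of BC002163 in the lower Ndufs5 was not tested. With anti-PD1 in Aire+/+ cells Sdhc and Uqcr11 were down (-0.18 each) and Atp5sl (0.19) and Cox7a1 (0.23) up, and in Aire-/- cells Ndufs1 (-0.13) and Ndufs6 (-0.10) were down and Sdhb (0.19) up.

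Splenic CD8-gated cells of the CD8+ sort showed wider shifts in the sum. Aire-/- over Aire+/+ was -0.05 under isotype and 0.13 under anti-PD1, with member medians of -0.05 and 0.14 beside 0.01 and 0.07 for all genes. Anti-PD1 over isotype was -0.10 in Aire+/+ and 0.08 in Aire-/- cells, with member medians of -0.11 and 0.10 beside -0.02 and 0.04.

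Tumor macrophages were compared in the same way. The members summed to 19128, 18329, 17678 and 18461 CPM. Aire-/- over Aire+/+ gave -0.11 (-0.12 to -0.10) with the control antibody and 0.01 (-0.00 to 0.03) with anti-PD1, and anti-PD1 over isotype gave -0.06 (-0.07 to -0.05) in Aire+/+ and 0.06 (0.05 to 0.08) in Aire-/- macrophages. The genotype ratio under anti-PD1 turned to -0.03 when ribosomal protein and mitochondrially encoded genes were left out of the totals. It also turned negative after thinning and was larger relative to the all-gene median. The gates held 1053, 709, 504 and 186 cells, and their makeup differed. Macrophage marker genes, led by C1qb, summed to 12831.5, 13975.5, 11258 and 8671 CPM, and monocyte marker genes, led by Lyz2, to 4123, 4561, 6114 and 8021 CPM. Mature dendritic genes, led by Ccr7, stood at 16.5, 16.5, 25.9 and 88.8 CPM, and plasmacytoid dendritic genes, led by Bst2 with Siglech at 0, stood at 933, 1179, 985 and 789 CPM. Neutrophil genes, led by Csf3r with Retnlg at 0, summed to 26.3, 32.6, 34.9 and 47.3 CPM, and tumor or stromal genes, led by Cdh1 with Krt8 at 0, to 10.4, 7.57, 9.31 and 5.35 CPM. Platelet genes, led by Pf4, stood at 202, 122, 84.3 and 22.7 CPM, and plasma cell genes, led by Xbp1, stood at 172, 157, 199.9 and 244 CPM. The part of this shift in the member values was not tested.

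Under isotype, 0 of 77 members were higher and 3 lower in Aire-/- macrophages, against 12.5% and 14.5% of 8655 genes. Under anti-PD1, 5 were higher and 5 lower of 77, against 15.3% and 28.4% of 7484 genes. For anti-PD1 over isotype, 0 of 77 passed either way in Aire+/+ macrophages, against 6.96% of 8880 genes higher and 6.23% lower, and in Aire-/- macrophages 1 of 75 was higher and 0 lower, against 9.48% and 20% of 6796 genes. Member medians were -0.12, -0.01, -0.06 and 0.06, beside -0.04, -0.10, -0.02 and -0.08 for all genes.

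Atp5g2 was lower in Aire-/- macrophages under both treatments. It had 568 and 533 CPM in Aire+/+ and 425 and 394 CPM in Aire-/- macrophages, log2 ratios of -0.42 (-0.48 to -0.36) and -0.44 (-0.54 to -0.33). Atp5sl lay at -0.40 (-0.83 to 0.01) under isotype, from 67 against 181 UMIs. Under anti-PD1 it lay at -0.82 (-1.73 to -0.01), from 14 against 119 UMIs. Cox7a1 lay lower under anti-PD1, at -0.85 (-1.80 to -0.02) from 13 against 113 UMIs. Atp5sl under both treatments and Cox7a1 under anti-PD1 met the UMI minimum over the pair through the deeper Aire+/+ library alone. That filter can favor low Aire-/- values, so these ratios cannot tell a genotype difference from an effect of the filter. Cox4i2 and Ndufa4 were farthest up between genotypes under anti-PD1, at 0.34 each, with an interval of -0.23 to 0.88 for Cox4i2 and 0.17 to 0.51 for Ndufa4, and Sdha and Cox4i2 under isotype, at 0.15 each. With anti-PD1 in Aire-/- macrophages Uqcrh was farthest up, at 0.37 (0.25 to 0.49), from 273 to 354 CPM, followed by Cox7c at 0.30, and Sdha (-0.31) and Ndufa9 (-0.29) were farthest down. In Aire+/+ macrophages Ndufv1 (-0.23) and Atp5g1 (-0.22) were farthest down and Cox7c (0.15) and Cox7a1 (0.13) farthest up.

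**Figure D4:**
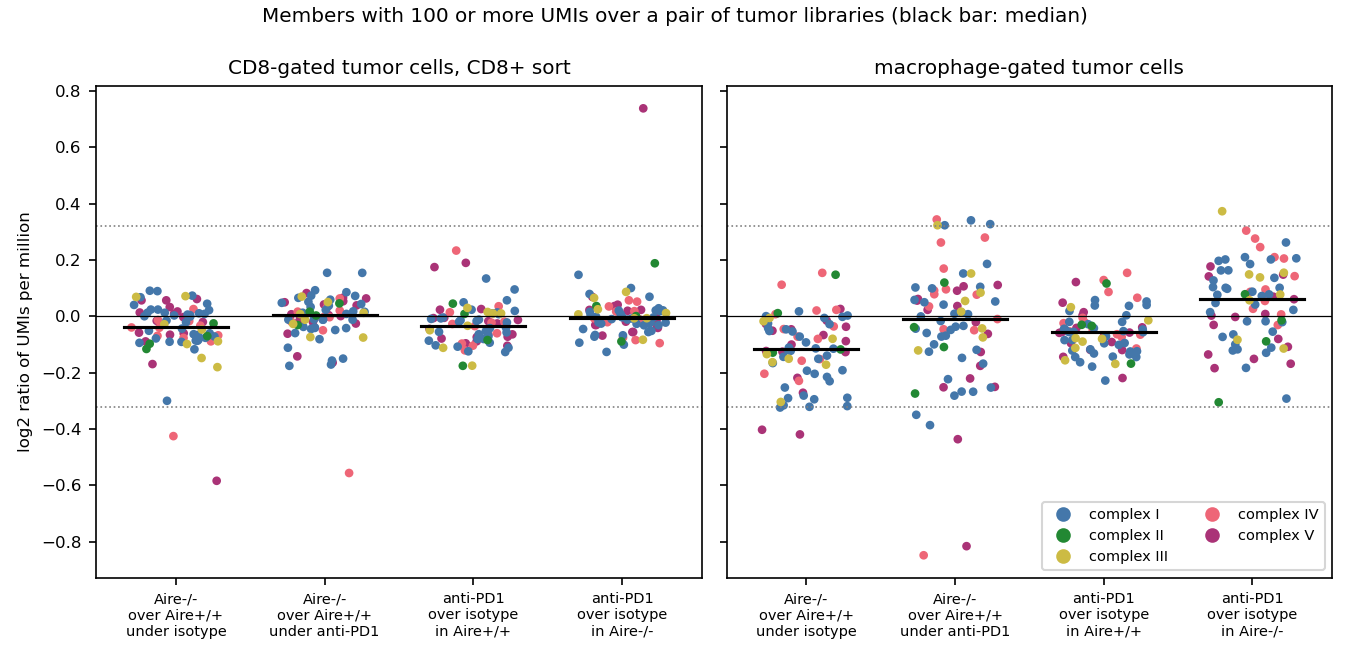
Log2 ratio of each member with 100 or more UMIs over the pair in 4 genotype and treatment comparisons, for tumor CD8-gated cells of the CD8+ sort and tumor macrophages; black bars mark the medians. CD8 medians lie between -0.04 and 0.00 and macrophage medians between -0.12 and 0.06.

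Promoters of the members carry letters of known activator motifs. RefSeq windows of 300 bases in build GRCm38.p6 were present for 64 members, 69 windows in all, and both strands were searched. The 10-base palindromic core of the NRF1 motif occurred in 5 of 69 member promoters (7.25%) and in 319 of 32851 promoters of all genes (0.971%). The ETS letters CCGGAAG occurred in 16 member promoters (23.2%, against 8.86% of all), and the YY1 letters AAGATGGCG in 7 (10.1%, against 1.40%). Any of the 3 was found in 39.1% of the 64 member genes and 12.1% of 27025 genes. By call these were 20 of 52 genes higher in tumor CD8-gated cells, 1 of 5 lower genes and 4 of 7 genes not called. A match describes the sequence and says nothing on binding.

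The windows with letters of more than 1 motif belonged to Atp5j, Atp5k and Cox6a1, which were higher in tumor CD8-gated cells by 0.62, 0.56 and 0.33. They are printed from RefSeq, GRCm38.p6, on the minus strand, at chr16:84834927-84835226 for Atp5j (YY1 and ETS), chr5:108434350-108434649 for Atp5k and chr5:115348909-115349208 for Cox6a1 (both NRF1 and ETS, the latter read on the opposite strand as CTTCCGG). Capitals mark the motif letters. The other annotated window of Atp5j, chr16:84835576-84835875, holds none of them.
Atp5j: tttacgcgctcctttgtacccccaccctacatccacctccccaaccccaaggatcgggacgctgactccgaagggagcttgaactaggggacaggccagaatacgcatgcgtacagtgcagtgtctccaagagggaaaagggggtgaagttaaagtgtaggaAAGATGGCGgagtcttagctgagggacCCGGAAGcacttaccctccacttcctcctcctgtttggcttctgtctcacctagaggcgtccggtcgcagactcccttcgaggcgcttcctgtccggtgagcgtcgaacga
Atp5k: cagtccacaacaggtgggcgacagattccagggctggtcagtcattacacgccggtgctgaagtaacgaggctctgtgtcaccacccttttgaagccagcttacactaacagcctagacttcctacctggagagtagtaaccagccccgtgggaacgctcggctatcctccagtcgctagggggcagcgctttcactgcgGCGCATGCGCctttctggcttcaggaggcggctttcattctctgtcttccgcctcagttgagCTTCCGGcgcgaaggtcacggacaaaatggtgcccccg
Cox6a1: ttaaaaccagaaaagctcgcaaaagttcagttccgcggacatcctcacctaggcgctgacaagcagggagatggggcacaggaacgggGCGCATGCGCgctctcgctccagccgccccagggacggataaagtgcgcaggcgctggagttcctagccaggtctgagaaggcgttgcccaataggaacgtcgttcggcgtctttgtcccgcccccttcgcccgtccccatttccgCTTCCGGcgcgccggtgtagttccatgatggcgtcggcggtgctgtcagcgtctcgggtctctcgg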

How the data were processed

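Single-cell RNA libraries of 16 sorted pools, 3′ by the labels, were used as the authors deposited them, as counts of UMIs per gene row and barcode aligned to GRCm38. The handling of multi-mapped reads is not given in the sources used here, and near-identical copies such as processed pseudogenes may share reads. Rows of the same symbol were summed, and 27 vector rows were left out. Each table held 25127 rows. Barcodes with fewer than 200 genes or over 20% mitochondrial UMIs were removed (2936 barcodes to 2930 cells and 2117 to 2088, for example). Doublets were not called; cells in more than 1 gate were dropped, and an alternative left out cells above the 95th percentile of UMIs.

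UMIs were summed per gate and library, with 20 or more gated cells required per library, except for isoform levels, which needed 20 over the pooled libraries. Tumor was compared with spleen over 4 conditions as blocks with edgeR 4.0.16 (quasi-likelihood, TMM) in R 4.3.3, at a Benjamini-Hochberg adjusted p of 0.05. The design was checked on simulated data with planted changes and no composition difference between tissues. Genotype and treatment ratios have conditional exact 95% intervals and no test, and levels have exact Poisson intervals. Alternatives used DESeq2 1.42.0, other gates, filters and scalings, and thinning to 1000 UMIs per cell. Python 3.11.15, pandas 2.3.3, numpy 2.4.6, scipy 1.17.1 and matplotlib 3.10.9 served for the rest.

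Members and lists were chosen with earlier results of these data known. Genes were named by rule: all Sdh members, per other complex the 3 members with the largest absolute fold change in the CD8-gated fit and the 2 with the highest mean CPM, known isoform genes, the 2 members farthest each way in each genotype or treatment comparison, and the 2 genes of each other list farthest each way.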

Additional observations from a re-analysis of the deposited data

Results flagged for a closer look

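In 152 groups of 4 libraries checked for a library far from the other 3, 6 were found; about 1 group in 20 is expected by chance, and the libraries are different conditions and not replicates. Summed members in tumor NK cells stood at 23357 CPM under Aire+/+ isotype, against 22188 to 22253 CPM in the others. Ndufa4 stood at 249 CPM in Aire-/- anti-PD1 tumor CD8-gated cells, against 232 to 234 CPM. In splenic CD8-gated cells Ndufa9 had 43.5 CPM under Aire+/+ anti-PD1, against 48.2 to 48.9 CPM, and Sdhd had 70.0 CPM under Aire+/+ isotype, against 62.8 to 63.8 CPM. In NK cells Atp5d had 599 CPM in the Aire+/+ anti-PD1 tumor, against 664 to 677 CPM, and Atp5e had 845 CPM in the Aire+/+ isotype spleen, against 938 to 947 CPM.

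Some members pointed opposite ways in 2 groups in every condition when TMM factors were applied, and the difference itself was not tested. By CPM without TMM factors, NK values were higher in the tumor in 2 of 4 conditions for Atp5a1, 1 for Cox7a2l, 3 for Ndufa10 and 1 for Ndufs5, so for these genes the pattern depends on the scaling. In CD8-gated cells the factors lower the tumor over spleen value. Uqcrc2 in Aire-/- isotype had -0.011, with factors of 1.011 in the tumor and 0.972 in the spleen. Atp5a1 in Aire+/+ anti-PD1 had -0.062, with factors of 1.042 and 0.947. Each of these values turns positive without the factors, so the Uqcrc2 pattern and the CD8 side of the Atp5a1 pattern also depend on the scaling. The log2 tumor over spleen value in NK cells minus that in CD8-gated cells was 0.54 for Atp5a1 (0.45 and -0.09), -0.17 for Atp5h (-0.07 and 0.09), 1.02 for Cox7a2l (0.30 and -0.73) and 0.74 for Ndufa10 (0.50 and -0.24). Between genotypes, the Aire-/- minus Aire+/+ value was -0.58 for Ndufs5 in NK cells (-0.20 and 0.38) and -0.13 for Uqcrc2 in CD8-gated cells (-0.08 and 0.06). BC002163, a pseudogene of Ndufs5 with its own row, also went with genotype in NK cells, at 11.2 and 10.2 CPM in Aire+/+ and 101 and 64.3 CPM in Aire-/- tumors (isotype and anti-PD1) and at 17.4 and 31.8 against 96.7 and 88.5 CPM in spleens, and its part was not tested. These differences were not tested.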

How the results depend on the processing

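Depth limits what can be said of NK cells of the spleen, whose gates held 220383 to 344347 UMIs against 1664561 to 3672654 in the tumor. In simulated data the NK test recovered 21 of 99 genes with a 1.5-fold change and the CD8 test 82 of 98, and they called 2 of 8013 and 15 of 11275 unchanged genes. Without the condition block 62 members were higher and 7 lower in CD8-gated cells (37.7% and 39.8% of all genes), and 58 and 1 in NK cells (22.6% and 19.4%). The CD4 T cell test and its alternatives were not run.

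Under the CD8 alternatives 48 to 66 members were higher and 5 to 7 lower, while 28.5 to 41.3% of all genes were higher and 25.7 to 39.8% lower. With 1 condition left out 55 to 60 members were higher and 6 lower, beside 35.5 to 36.7% and 36.4 to 37.4% of all genes. NK counts with 1 condition left out were 47 to 56 higher and 1 lower, beside 16.9 to 21.0% and 12.2 to 15.9% of all genes. NK counts moved most without TMM, to 16 higher and 6 lower (12.2% and 34.96% of all genes), and after thinning, to 13 of 67 higher (21.6% of 1965 genes); 2 were lower when only genes with 0 UMIs were removed (9.19% of genes). All-gene NK medians were 0.21 under that filter and -0.14 with DESeq2. The cause was not tested. Among members named by rule and called, directions turned for Ndufa9 in CD8-gated cells of the CD45+ sort (-0.00888). They also turned for Atp5g1 (-0.0301) and Ndufb7 (-0.0139) in thinned NK cells. In NK cells without TMM they turned for Cox8a (-0.0808), Uqcr11 (-0.00747) and Uqcrh (-0.0109). That setting lowers all NK genes alike (median -0.42) and leaves these 3 above that median. Members not named by rule are not in this list. The cause of the others was not tested.

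Log2 ratios of summed members are listed as Aire-/- over Aire+/+ under isotype, then under anti-PD1, then anti-PD1 over isotype in Aire+/+, then in Aire-/-. In tumor CD8-gated cells they were -0.0404, -0.0229, -0.0322 and -0.0147 after thinning, -0.000955, 0.0141, -0.0527 and -0.0332 relative to the all-gene median, and -0.000851, -0.0306, -0.0751 and -0.105 in the CD45+ sort. With ribosomal protein and mitochondrial genes out of the denominator they were -0.0575 for the first, -0.0822 for the third and -0.0186 for the last. In macrophages they were -0.165, -0.00890, -0.0749 and 0.0813 after thinning, -0.0788, 0.102, -0.0455 and 0.134 relative to the median, -0.161, -0.0266 and -0.0722 for the first 3 with that denominator, and 0.0344 under anti-PD1 with a doubled gate. The cause was not tested.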
